A study of Mus musculus with 16 samples.

Results

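The genes described here, 9 in number, encode parts of the type I interferon signalling chain and were followed across mouse cardiac tissue of 4 genotypes: the receptor chains Ifnar1 and Ifnar2, the transcription factors Stat2, Irf1, Irf3, Irf7 and Irf9, and the feedback inhibitors Usp18 and Socs1. They were chosen by symbol, each symbol matching 1 entry of the count table, so that 9 of 36499 entries are described, and all 9 were tested. The groups were double KO mice, which lacked Clpp and Fgf21, Clpp KO mice, Fgf21 KO mice and wild-type mice, with 4 RNA sequencing libraries for each genotype. CLPP is the catalytic subunit of a protease inside mitochondria, and FGF21 is a metabolic hormone. All mice ate normal chow. Clpp was deleted in the whole body by crossing Clpp fl/fl mice to a transgene that expresses Cre from the β-actin promoter, and heterozygous offspring were intercrossed. The double KO came from Clpp fl/fl Fgf21 fl/fl mice and the same Cre. The labels do not say how the single Fgf21 KO and the wild-type mice were bred, nor the age or sex of the mice, nor if each library stands for its own mouse. The spread that the p-values rest on is that between libraries, and some of it may be technical.

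Type I interferons bind a receptor made of IFNAR1 and IFNAR2, whose kinases phosphorylate STAT2. Phosphorylated STAT2 acts with IRF9 in the complex ISGF3, which binds interferon-stimulated response elements in the promoters of interferon-stimulated genes. IRF3 and IRF7 act earlier, since phosphorylated by kinases downstream of viral or mitochondrial nucleic acid sensors they switch on the interferon genes themselves, and IRF7 and STAT2 are themselves interferon-stimulated. IRF1 is best known as a factor induced by interferon gamma. USP18 removes ISG15 from proteins and blocks signalling at IFNAR2, and SOCS1 inhibits the JAK kinases. In cardiac tissue, as in other bulk tissue, fewer cells of a type and less RNA per cell cannot be told apart.

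The promoters of 4 of these genes are shown: Stat2, Irf7, Irf9 and Socs1. Stat2, Irf7 and Irf9 passed the test described below in double KO against Fgf21 KO, and of these only Irf7 also passed against wild type. Of the genes that passed it in no comparison that differs by Clpp, Socs1 was the only one whose window held a response element match. Each is the RefSeq window of 300 bases on GRCm38.p6, which holds 250 bases before the start site and 50 after it, written on the gene's own strand. RefSeq windows were found for 8 of the 9 genes, and not for Usp18. The windows were searched on both strands for GAAANNGAAA, the core of an interferon-stimulated response element, and for TTCNNNGAA, the gamma-activated site bound by STAT dimers. Capitals mark matches, and neither motif contains the other. Stat2 lies at chr10:128270248-128270547 (plus strand), Irf7 at chr7:141266375-141266674 (minus strand), Irf9 at chr14:55603735-55604034 (plus strand, the first of 2 start sites) and Socs1 at chr16:10785487-10785786 (minus strand).
Stat2: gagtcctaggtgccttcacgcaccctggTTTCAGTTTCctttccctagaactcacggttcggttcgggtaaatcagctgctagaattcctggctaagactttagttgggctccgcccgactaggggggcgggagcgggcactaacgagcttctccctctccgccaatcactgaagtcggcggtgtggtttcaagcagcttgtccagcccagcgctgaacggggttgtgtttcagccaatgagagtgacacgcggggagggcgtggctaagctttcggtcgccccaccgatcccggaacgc
Irf7: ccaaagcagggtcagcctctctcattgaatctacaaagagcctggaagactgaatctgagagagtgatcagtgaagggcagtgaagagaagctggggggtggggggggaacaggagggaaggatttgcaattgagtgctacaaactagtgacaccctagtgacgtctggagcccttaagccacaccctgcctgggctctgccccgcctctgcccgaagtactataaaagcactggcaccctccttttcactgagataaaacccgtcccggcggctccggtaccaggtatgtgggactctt
Irf9: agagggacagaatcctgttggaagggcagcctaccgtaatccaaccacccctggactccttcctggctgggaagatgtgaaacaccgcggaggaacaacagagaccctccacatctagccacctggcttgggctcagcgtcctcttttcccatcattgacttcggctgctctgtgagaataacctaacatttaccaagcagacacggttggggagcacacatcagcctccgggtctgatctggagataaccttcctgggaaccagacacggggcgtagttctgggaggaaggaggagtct
Socs1: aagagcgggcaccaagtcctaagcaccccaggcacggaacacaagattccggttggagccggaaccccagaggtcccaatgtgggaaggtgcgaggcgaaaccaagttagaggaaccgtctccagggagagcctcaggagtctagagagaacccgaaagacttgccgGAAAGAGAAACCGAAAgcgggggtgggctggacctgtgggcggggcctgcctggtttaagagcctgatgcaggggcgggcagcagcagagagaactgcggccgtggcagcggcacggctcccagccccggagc

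The Stat2 window held 1 response element match, which began 222 bases before the start site and read TTTCAGTTTC on the gene's strand. The Socs1 window held 2 overlapping matches, GAAAGAGAAA and GAAACCGAAA, which began 83 and 77 bases before the start site. No other window of the 8 genes held one, and 3.44% of 32851 RefSeq windows did, or 3.99% of 27025 genes in any of their windows. A gamma-activated site match stood in the windows of Ifnar1 (TTCACGGAA), Ifnar2 (TTCCTGGAA) and Irf1 (TTCCCCGAA, in the first of its 2 windows only), against 8.3% of all windows and 9.55% of genes. Each match is a run of letters and not a measured binding site.

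The libraries held 36260545 to 51820727 counts. Clpp counts were 267 to 293 in double KO and 308 to 355 in Clpp KO, against 1435 to 2636 in Fgf21 KO and 1728 to 2108 in wild type. Fgf21 counts were 0 in all 4 double KO and all 4 Fgf21 KO libraries, 6 to 28 in Clpp KO and 0 to 5 in wild type. The label of cardiac tissue was borne out by the 6 cardiomyocyte markers, whose summed level was 20096 to 41742 CPM (counts scaled to a common library size) over the 16 libraries. The mRNAs of the mitochondrial genome took 56.1% to 60.8% of counts in the Clpp-null libraries and 25.5% to 39.4% in the others. The scaling factors (TMM, trimmed mean of M-values) that correct for such composition ran from 0.674 to 1.83, and levels below are CPM scaled by TMM. Wild type split into pairs: the 7 atrial markers summed to 9976 and 6439 CPM in replicates 2 and 4, and to 106 and 101 CPM in replicates 1 and 3. The same sum was 180 to 1442 CPM in double KO, 211 to 3413 CPM in Clpp KO and 369 to 2865 CPM in Fgf21 KO. Wild-type replicates 1 and 3 were also more alike than any other replicate pair (Spearman correlation across genes 0.997), yet differed beyond counting noise and were kept as 2 libraries. Results against wild type that rest on replicates 2 and 4 are given with and without them.

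The comparison of Clpp KO with wild type asks what loss of the mitochondrial protease does when FGF21 is intact. Usp18 and Irf7 rose, by 10.5-fold and 4.53-fold, and none of the other 7 genes passed the test. A gene is called when its adjusted p is under 0.05 in edgeR's quasi-likelihood test with Benjamini-Hochberg adjustment over all 15255 genes tested. The count was 2 of 9 genes called higher, where 1.08% of all tested genes were called higher, and 0 of 9 called lower, where 0.551% were. At an unadjusted p under 0.05, 4 of the genes were higher and 1 was lower, with edgeR and with DESeq2 alike. Of all 15255 tested genes, 3253 with edgeR and 3413 with DESeq2 had such a p, in either direction. The median log2 fold change of the 9 genes was -0.01, beside -0.04 over all tested genes.

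The comparison of double KO with Fgf21 KO asks the same of hearts without FGF21. Usp18, Irf7, Irf9 and Stat2 rose there, so that 4 of 9 genes were called higher, where 0.826% of all tested genes were. None was called lower, where 0.0656% were. The median log2 fold change of the 9 genes was 0.60, beside -0.01 over all tested genes. Against wild type, double KO had 2 of 9 genes called higher, Usp18 and Irf7, where 1.05% of tested genes were, and 0 called lower, where 0.479% were. These comparisons share libraries, so their values are given side by side and their likeness is not a separate result.

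**Figure D1:**
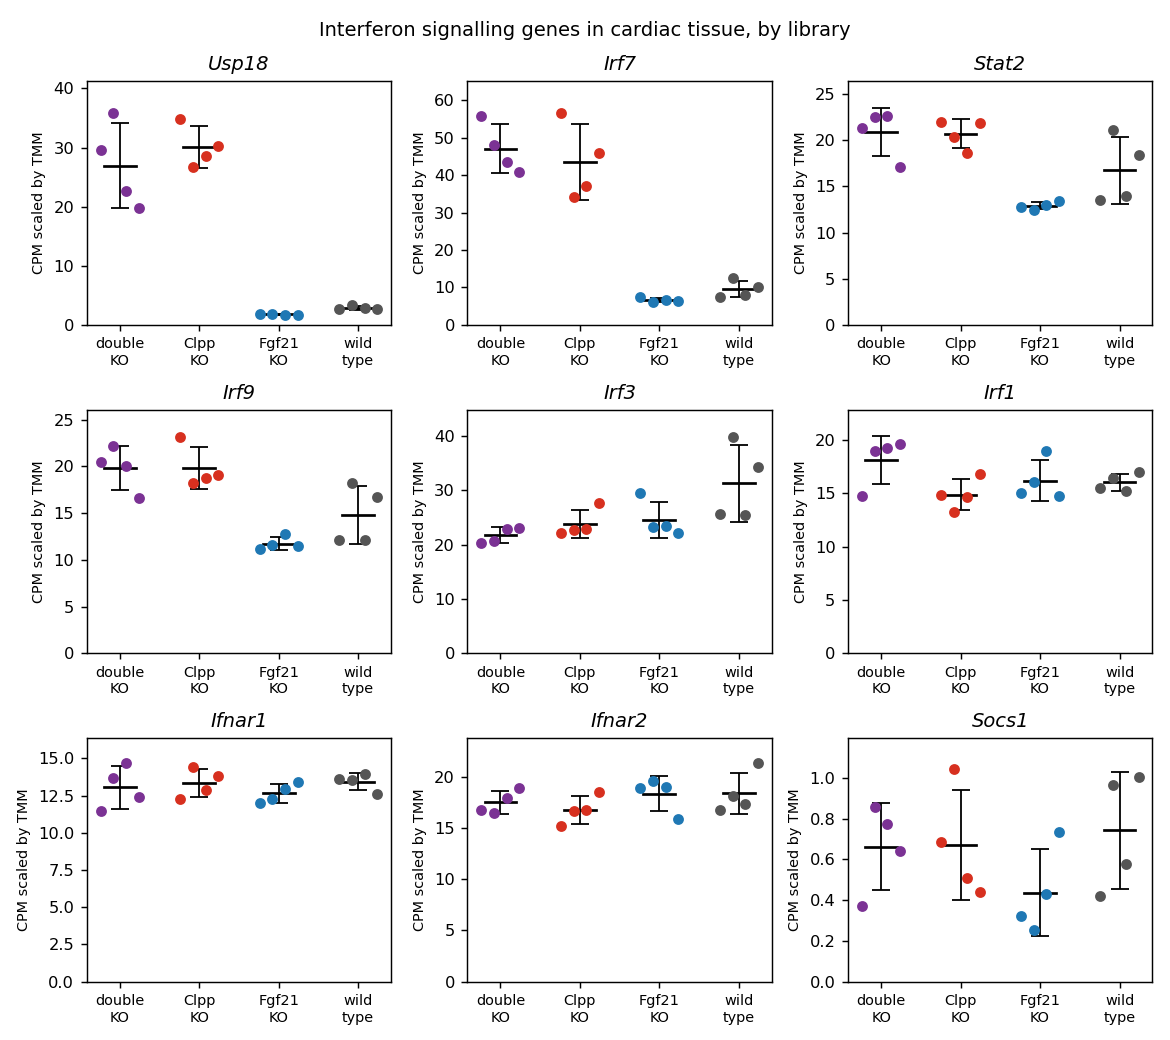
Levels of the 9 genes in CPM scaled by TMM (vertical axes, each starting at 0) in the 16 libraries, by genotype. Each point is a library, bars are the group mean and SD (n = 4), and Usp18 and Irf7 are high in every Clpp-null library while the receptor chains lie within 1.40-fold over all 16 libraries.

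Usp18, the deISGylating protease that restrains the receptor, changed most. It lies on chromosome 6, positions 121245906 to 121270917 (ENSMUSG00000030107, plus strand of GRCm38). It measured 29.5, 35.8, 22.7 and 19.8 CPM in double KO and 34.9, 26.7, 28.6 and 30.2 CPM in Clpp KO. Its Fgf21 KO libraries held 1.89, 1.74, 1.71 and 1.67 CPM, and those of wild type 2.69, 3.30, 2.78 and 2.64 CPM. Every Clpp-null library lay above every library with Clpp, and every Fgf21 KO library lay below every wild-type library. The log2 fold change of Usp18 was 3.40 ± 0.17 in Clpp KO against wild type (SE, adjusted p = 1.09e-08, edgeR quasi-likelihood test) and 3.94 ± 0.17 in double KO against Fgf21 KO (adjusted p = 1.96e-09). In both, Usp18 had the smallest p of all 15255 genes. Against wild type, double KO stood at 3.24 ± 0.17 (adjusted p = 2.12e-08). The counts behind these levels were 618 to 1526 in Clpp-null libraries and 84 to 219 in the others.

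Irf7, the master factor of interferon alpha gene induction, followed. Its locus is chromosome 7, positions 141262706 to 141266481 (ENSMUSG00000025498, minus strand). It measured 55.9, 48.0, 43.6 and 40.8 CPM in double KO and 56.7, 34.1, 37.0 and 45.8 CPM in Clpp KO. Fgf21 KO gave 7.49, 6.0, 6.64 and 6.33 CPM, and wild type gave 7.55, 12.5, 8.04 and 10.2 CPM. The lowest Clpp-null library held more than 2 times the level of the highest library with Clpp. Irf7 had a log2 fold change of 2.18 ± 0.18 in Clpp KO against wild type (adjusted p = 5.82e-06, edgeR quasi-likelihood test), 2.83 ± 0.19 in double KO against Fgf21 KO (adjusted p = 3.12e-07) and 2.30 ± 0.18 in double KO against wild type (adjusted p = 2.4e-06). Phrf1, a ubiquitin ligase gene that overlaps Irf7 by 45 bases on the other strand, had 0.10 ± 0.10 in Clpp KO against wild type. No stretch of 31 bases of Irf7 or of Usp18 occurred on the same strand in a transcript of another gene. On the opposite strand 0.36% of the stretches of Irf7 did, mainly in Phrf1, and 3.48% of those of Usp18, mainly in Gm44148, a long non-coding RNA gene that overlaps Usp18 by 15715 bases. The use of strand in counting is not stated, so reads in these stretches cannot be told apart.

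In the 3 comparisons that differ by Clpp, both genes stayed called in every one of the 16 fits that left out 1 library. Their ranges in Clpp KO against wild type were 3.32 to 3.48 for Usp18 and 2.03 to 2.35 for Irf7. The 10 macrophage and monocyte markers, all detected in every library, summed to 167 to 242 CPM in double KO, 203 to 261 CPM in Clpp KO, 158 to 210 CPM in Fgf21 KO and 148 to 290 CPM in wild type. Wild-type replicates 1 and 3, at 151 and 148 CPM, lay below every Clpp-null library. The overlap with wild type thus rested on replicates 2 and 4, at 290 and 251 CPM. The 8 T and NK cell markers summed to 1.27 to 4.10 CPM over all libraries and the 4 B cell markers to 0.513 to 2.37 CPM. The 4 plasmacytoid dendritic cell markers summed to 17.9 to 26.2 CPM in double KO and 18.1 to 25.3 CPM in Clpp KO, against 8.25 to 16 CPM in Fgf21 KO and 12.9 to 20.4 CPM in wild type. Every Clpp-null library thus lay above every Fgf21 KO library in that sum, while the ranges overlapped with that of wild type through wild-type replicate 2. The sum was carried by Bst2, which is also an interferon-stimulated gene and was the only 1 of the 3 tested markers of the list called higher in double KO against Fgf21 KO (log2 fold change 0.93 ± 0.21, adjusted p = 0.0472, edgeR quasi-likelihood test). None was called in Clpp KO or double KO against wild type, and up to 1 of the 4 markers was at 0 in a library. The part of these cell types in the rise of Usp18 and Irf7 was not tested.

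Stat2 and Irf9, which encode parts of ISGF3, rose in double KO against Fgf21 KO and did not pass the test against wild type. Stat2 lies on chromosome 10, positions 128270559 to 128292849 (ENSMUSG00000040033, plus strand). It measured 21.3, 22.5, 22.6 and 17.1 CPM in double KO and 22.0, 20.4, 18.6 and 21.8 CPM in Clpp KO. In Fgf21 KO it measured 12.8, 12.4, 13.0 and 13.4 CPM, and in wild type 13.5, 21.1, 14.0 and 18.4 CPM. The Fgf21 KO libraries all lay below the Clpp-null ones (4 of the 9 genes separated upward in double KO against Fgf21 KO, as did 3.88% of tested genes), while wild-type replicates 2 and 4 lay among the Clpp-null values. The log2 fold change of Stat2 was 0.69 ± 0.13 in double KO against Fgf21 KO (adjusted p = 0.0155, edgeR quasi-likelihood test), 0.31 ± 0.13 in Clpp KO against wild type (adjusted p = 0.206) and 0.32 ± 0.13 in double KO against wild type (adjusted p = 0.18). The rise in double KO against Fgf21 KO was called in 10 of 16 fits that left out 1 library. It missed the threshold without Fgf21 KO replicate 1, 2 or 3 or double KO replicate 1, 2 or 3, with an adjusted p of up to 0.0628.

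Irf9, the DNA-binding subunit of ISGF3, showed the same layout. It lies on chromosome 14, positions 55603571 to 55610030 (ENSMUSG00000002325, plus strand). It measured 20.5, 22.2, 20.1 and 16.6 CPM in double KO and 23.1, 18.2, 18.7 and 19.1 CPM in Clpp KO. Its Fgf21 KO libraries held 11.1, 11.6, 12.8 and 11.4 CPM, and those of wild type 12.1, 18.2, 12.2 and 16.7 CPM. All Clpp KO libraries lay above all wild-type libraries, the nearest pair by less than the printed digits. Such a separation upward was seen for 7.75% of all tested genes in this comparison. Irf9 had a log2 fold change of 0.76 ± 0.14 in double KO against Fgf21 KO (adjusted p = 0.00859, edgeR quasi-likelihood test), 0.42 ± 0.14 in Clpp KO against wild type (adjusted p = 0.121) and 0.42 ± 0.14 in double KO against wild type (adjusted p = 0.11). The first was called in 16 of 16 fits that left out 1 library. Of the 31-base stretches of Irf9, 4.24% occurred on the same strand in other genes, most often in Rnf31. Rnf31, a ubiquitin ligase gene that overlaps Irf9 by 123 bases on the same strand, had 0.30 ± 0.11 in double KO against Fgf21 KO (adjusted p = 0.431, edgeR quasi-likelihood test).

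With wild type limited to replicates 1 and 3, the libraries low in atrial markers, Stat2 and Irf9 were called higher against wild type too. Stat2 then had a log2 fold change of 0.59 in Clpp KO against wild type (adjusted p = 0.0175, edgeR quasi-likelihood test) and 0.60 in double KO against wild type (adjusted p = 0.0187). Irf9 had 0.71 (adjusted p = 0.01) and 0.70 (adjusted p = 0.0116). The count of the 9 genes called higher was then 4 in both comparisons. That rests on 2 wild-type libraries, which are the replicate pair most alike, and with these summed to 1 library beside replicates 2 and 4 neither gene was called. The wild-type pairs differed in more than atrial markers. The macrophage and monocyte markers summed to 290 and 251 CPM in replicates 2 and 4, against 151 and 148 CPM in replicates 1 and 3. The 5 fibroblast markers summed to 813 and 543 CPM, against 407 and 416 CPM. The sums of cardiomyocyte, endothelial and B cell markers did not separate the pairs. The part of atrial tissue or of other cell types in these levels was not tested.

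**Figure D2:**
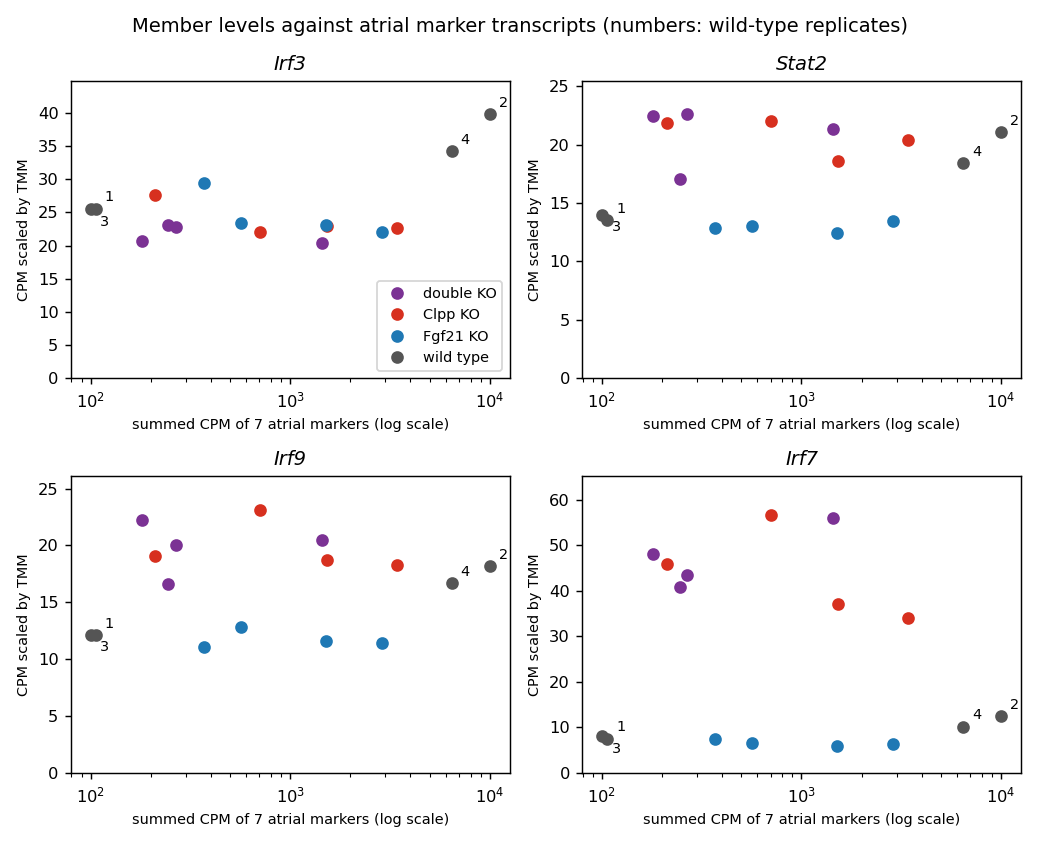
Levels of Irf3, Stat2, Irf9 and Irf7 in CPM scaled by TMM (vertical axes) against the summed level of 7 atrial markers (horizontal axes, log scale) in the 16 libraries, coloured by genotype, with wild-type replicates numbered. Wild-type replicates 2 and 4, at 9976 and 6439 CPM of atrial markers, are higher for all 4 genes than wild-type replicates 1 and 3. The same holds for Ifnar2, Irf1 and Socs1, which are not plotted, and not for Ifnar1 or Usp18. The share of all tested genes with this split was not counted.

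Irf3, the factor that starts interferon beta transcription, was lowest in double KO and did not pass the test. It lies on chromosome 7, positions 44997648 to 45002848 (ENSMUSG00000003184, plus strand), 611.0 kb from Fgf21. It measured 20.3, 20.7, 22.9 and 23.1 CPM in double KO and 22.1, 22.7, 22.9 and 27.7 CPM in Clpp KO. Fgf21 KO gave 29.4, 23.2, 23.4 and 22.1 CPM, and wild type gave 25.6, 39.8, 25.5 and 34.2 CPM. Every double KO library lay below every wild-type library, a separation downward seen for 4.48% of tested genes. The log2 fold change of Irf3 was -0.52 ± 0.14 in double KO against wild type (adjusted p = 0.0756, edgeR quasi-likelihood test), -0.39 ± 0.14 in Clpp KO against wild type (adjusted p = 0.147) and -0.17 ± 0.14 in double KO against Fgf21 KO (adjusted p = 0.853). The first passed the threshold with DESeq2 (adjusted p = 0.0188), without wild-type replicate 1 (0.0333), without wild-type replicate 3 (0.0293) or with these 2 replicates summed as 1 library (0.0341). With wild type limited to replicates 1 and 3 it was -0.24 (adjusted p = 0.551). Bcl2l12, a gene of the BCL2 family that overlaps Irf3 by 1065 bases on the other strand, had -0.48 ± 0.14 in double KO against wild type (adjusted p = 0.0852). On the same strand Irf3 shared none of its 31-base stretches with another gene, and on the opposite strand 1.66%, mainly with Bcl2l12.

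Irf1 varied little. It lies on chromosome 11, positions 53770014 to 53778374 (ENSMUSG00000018899, plus strand). It measured 14.8, 18.9, 19.2 and 19.6 CPM in double KO and 14.8, 13.2, 14.7 and 16.8 CPM in Clpp KO. In Fgf21 KO it measured 15, 16, 18.9 and 14.8 CPM, and in wild type 15.5, 16.4, 15.2 and 17.0 CPM. All groups overlapped, and the fold between the highest and the lowest library was 1.49. Irf1 had a log2 fold change of -0.11 ± 0.11 in Clpp KO against wild type, with a 95% interval from -0.34 to 0.13, and 0.16 ± 0.11 in double KO against Fgf21 KO, with an interval from -0.07 to 0.40. Irf1 overlaps Gm17334 by 907 bases on the other strand, and 2.12% of its 31-base stretches occurred on the opposite strand in other genes, mainly in Gm17334.

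The receptor chains varied least. Both lie on the plus strand of chromosome 16, Ifnar1 at positions 91485238 to 91507441 (ENSMUSG00000022967) and Ifnar2 at 91372783 to 91405589 (ENSMUSG00000022971). Ifnar1, the signalling chain that carries the kinase TYK2, measured 11.5, 13.6, 14.7 and 12.4 CPM in double KO and 12.3, 14.4, 12.9 and 13.8 CPM in Clpp KO. Its Fgf21 KO libraries held 12, 12.3, 13.0 and 13.4 CPM, and those of wild type 13.6, 13.6, 14.0 and 12.6 CPM. The groups overlapped throughout. Its log2 fold change was -0.01 ± 0.09 in Clpp KO against wild type, with a 95% interval from -0.20 to 0.18, and 0.04 ± 0.09 in double KO against Fgf21 KO, with an interval from -0.15 to 0.24.

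Ifnar2, the high-affinity chain at which USP18 acts, measured 16.8, 16.5, 17.9 and 18.9 CPM in double KO and 15.2, 16.6, 16.7 and 18.5 CPM in Clpp KO. Fgf21 KO gave 18.9, 19.6, 19.0 and 15.9 CPM, and wild type gave 16.8, 18.1, 17.4 and 21.3 CPM. These groups overlapped as well. The log2 fold change of Ifnar2 was -0.13 ± 0.10 in Clpp KO against wild type, with a 95% interval from -0.35 to 0.08, and -0.07 ± 0.10 in double KO against Fgf21 KO, with an interval from -0.28 to 0.14. Of the 31-base stretches of Ifnar2, 8.5% occurred on the same strand in other genes, most often in the gene model Gm21970. Gm21970 was too low to be tested, so a few reads could be shared between it and Ifnar2.

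Socs1 was near the limit of what these libraries can measure. It lies on chromosome 16, positions 10782240 to 10785536 (ENSMUSG00000038037, minus strand). It had 14, 30, 25 and 20 counts in double KO and 30, 41, 21 and 14 counts in Clpp KO. In Fgf21 KO it had 18, 13, 23 and 37 counts, and in wild type 23, 64, 34 and 49 counts. As levels these were 0.373 to 0.858 CPM in double KO, 0.440 to 1.05 CPM in Clpp KO, 0.255 to 0.737 CPM in Fgf21 KO and 0.421 to 1.00 CPM in wild type, so that all groups overlapped. Socs1 had a log2 fold change of -0.14 ± 0.39 in Clpp KO against wild type, with a 95% interval from -0.98 to 0.69, and 0.60 ± 0.41 in double KO against Fgf21 KO, with an interval from -0.26 to 1.46. A change of the size seen for Usp18 or Irf7 lies outside both intervals, while a 1.5-fold rise lies inside both.

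Levels were also set against each other per kilobase of exon sequence, since longer transcripts collect more reads. The length used is the union of all annotated exons of a gene, which can exceed that of its mRNA. For Irf7 it was 3776 bases in 1 block, the whole locus, and for Usp18 2790 bases in 11 blocks. Per kb of a shorter, spliced transcript the level of Irf7 would be higher. In Clpp KO, Irf7 at 11.5 ± 2.69 and Usp18 at 10.8 ± 1.25 CPM per kb were the most abundant of the 9 genes (SD, n = 4). They were followed by Irf3 at 6.92 ± 0.752, Ifnar2 at 5.03 ± 0.405, Irf1 at 3.74 ± 0.374, Irf9 at 3.67 ± 0.417 and Stat2 at 3.50 ± 0.268 CPM per kb. Ifnar1 at 2.25 ± 0.161 and Socs1 at 0.231 ± 0.0932 CPM per kb came last. On these lengths Irf7 and Usp18 did not differ beyond their spread, and neither did Irf1, Irf9 and Stat2.

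In wild type the order was headed by Irf3 at 9.09 ± 2.04 and Ifnar2 at 5.52 ± 0.608 CPM per kb, and Irf1 stood at 4.03 ± 0.205 CPM per kb. Stat2 at 2.83 ± 0.614, Irf9 at 2.75 ± 0.577, Irf7 at 2.53 ± 0.599 and Ifnar1 at 2.26 ± 0.0963 CPM per kb were within a SD of their neighbours. Usp18 at 1.02 ± 0.109 CPM per kb was above only Socs1, which stood at 0.255 ± 0.0989 CPM per kb. On these lengths, the genes that headed the order in Clpp KO were thus among the lower ones in wild type, and the place of Irf7 depends on the length used.

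**Figure D3:**
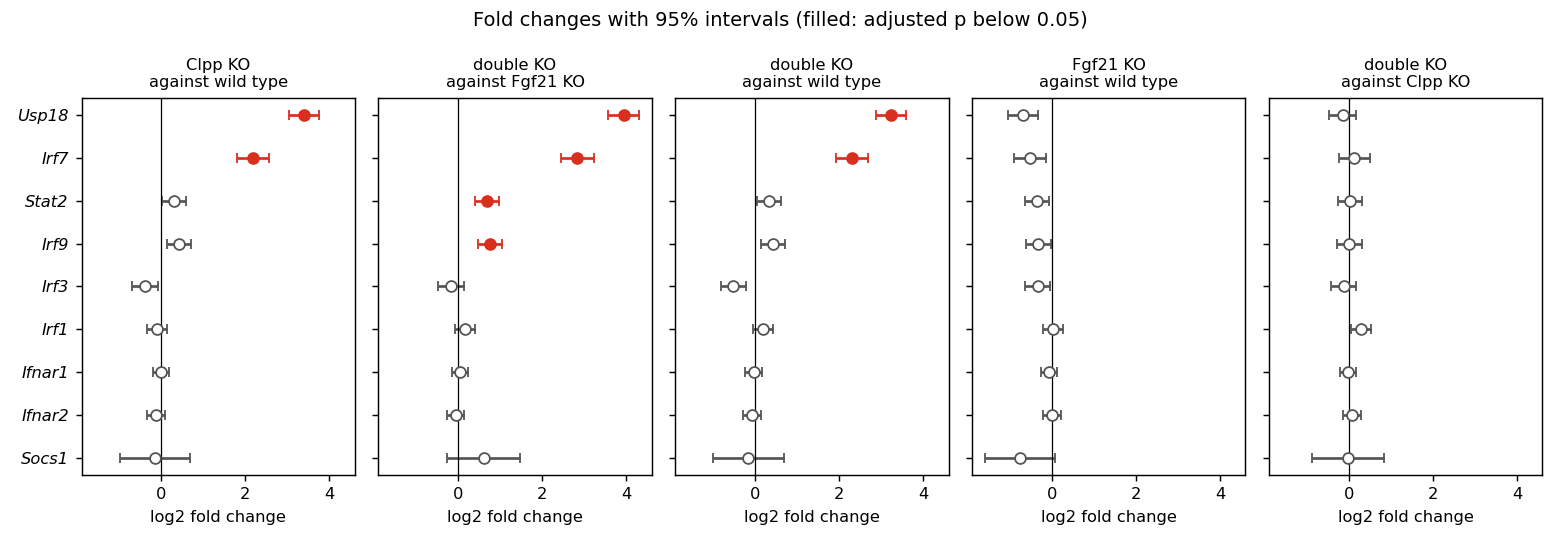
Log2 fold changes of the 9 genes (horizontal axes) in 5 comparisons, with 95% intervals as bars, and filled points where the adjusted p of edgeR's quasi-likelihood test was under 0.05. Usp18 and Irf7 are filled in the 3 comparisons that differ by Clpp, at 3.24 to 3.94 and 2.18 to 2.83, and no point is filled in the 2 that differ by Fgf21 alone.

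Loss of Fgf21 alone was the next question. In Fgf21 KO against wild type 0 of 9 genes were called with edgeR and 0 with DESeq2, where 0.0459% of all tested genes were called with edgeR. With edgeR, 1399 of all 15255 tested genes had an unadjusted p under 0.05, in either direction. Of the 9 genes, 5 were lower and none higher at that p with either tool. They were Usp18 at -0.70 ± 0.17 on the log2 scale (unadjusted p = 0.000607, edgeR quasi-likelihood test), Irf7 at -0.53 ± 0.18, Stat2 at -0.37 ± 0.13, Irf3 at -0.35 ± 0.14 and Irf9 at -0.33 ± 0.14, with adjusted p-values of 0.421 for Usp18 and 0.538 for the other 4. The Fgf21 KO libraries of Usp18, Irf7 and Stat2 all lay below all wild-type libraries, a separation downward seen for 1.57% of tested genes. The median log2 fold change of the 9 genes was -0.35, beside -0.01 over all tested genes. With wild type limited to replicates 1 and 3 that median was -0.08, and Usp18 stood at -0.63 (adjusted p = 0.657), Irf7 at -0.22, Stat2 at -0.08, and Irf3 and Irf9 at -0.04.

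Loss of Fgf21 on top of Clpp was read from double KO against Clpp KO. Here 0 of 9 genes were called with edgeR and 0 with DESeq2, where 0.059% of all tested genes were called with edgeR. With edgeR, 542 of all 15255 tested genes had an unadjusted p under 0.05. Of the 9 genes, 1 did, with either tool. That gene was Irf1, at 0.29 ± 0.11 on the log2 scale (unadjusted p = 0.0214, adjusted p = 0.994, edgeR quasi-likelihood test). Usp18 stood at -0.16 ± 0.15, with a 95% interval from -0.48 to 0.16, and Irf7 at 0.12 ± 0.17, with an interval from -0.25 to 0.48. Stat2 and Irf9 stood at 0.01 ± 0.13 and 0.00 ± 0.14, with intervals that ended at -0.27 and 0.30 for Stat2 and at -0.29 and 0.29 for Irf9. The groups overlapped for all 9 genes.

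Whether the effect of Clpp loss differed with Fgf21 was tested as an interaction, the log2 fold change of double KO against Fgf21 KO minus that of Clpp KO against wild type. With edgeR 0 of 9 genes were called, where 0% of all tested genes were, and DESeq2 also called 0 of the 9. With edgeR, 299 of all 15255 tested genes had an unadjusted p under 0.05, in either direction. Of the 9 genes, 2 were higher at that p with either tool. These were Irf7 at 0.65 ± 0.25 (unadjusted p = 0.0185) and Usp18 at 0.54 ± 0.22 (unadjusted p = 0.0267), both with an adjusted p of 1.00 in edgeR's quasi-likelihood test. Stat2 stood at 0.39 ± 0.19 and Irf9 at 0.34 ± 0.19. So the calls of Stat2 and Irf9 in double KO against Fgf21 KO and their lack in Clpp KO against wild type are not shown to differ. With wild type limited to replicates 1 and 3, the median of the 9 interaction terms was 0.08 in place of 0.34.

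The rest of the chain was read from lists of related genes, chosen, like the 9 genes, with earlier results of these data known. Of 7 JAK kinases and chains of other interferon receptors, edgeR called 1 higher in Clpp KO against wild type, none in double KO against Fgf21 KO and none in double KO against wild type, and none lower. DESeq2 called 1 higher, 0 and 1 higher in the same order, and at an unadjusted p under 0.05 either tool gave 1 higher in each, with 1 lower in both comparisons with wild type. The called gene was Jak1, the kinase bound to IFNAR2, at 112 ± 7.46 CPM in Clpp KO, against 59.3 ± 23.3 CPM in wild type (SD, n = 4 each). Its log2 fold change was 0.92 ± 0.20 (adjusted p = 0.0277, edgeR quasi-likelihood test). It was called in 11 of 16 fits that left out 1 library, with an adjusted p of up to 0.0875 without Clpp KO replicate 3. In double KO against wild type Jak1 had 0.72 ± 0.20 (adjusted p = 0.0814 with edgeR and 0.0156 with DESeq2) and was called by edgeR in 2 of 16 such fits, those without wild-type replicate 1 or 3. With wild type limited to replicates 1 and 3, edgeR called 1 gene of this list higher in Clpp KO against wild type. It also called 1 higher in double KO against Fgf21 KO. None was then called in double KO against wild type. None of the 5 STAT genes Stat3, Stat4, Stat5a, Stat5b and Stat6, which chiefly serve other cytokines and hormones, was called by edgeR or DESeq2 in the 3 comparisons that differ by Clpp, and none had an unadjusted p under 0.05 with either tool. Stat5a and Stat5b had the smallest p of these 5 in Clpp KO against wild type, with log2 fold changes of 0.12 ± 0.11 and 0.16 ± 0.15.

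The IRF genes Irf2, whose product can repress interferon-responsive promoters, and Irf4, Irf5 and Irf8, factors of immune cells, were not called by edgeR or DESeq2 in these comparisons either, and none had an unadjusted p under 0.05 with either tool. Irf4 and Irf2 had the smallest p of these 4 in Clpp KO against wild type, with log2 fold changes of 0.34 ± 0.32 and 0.07 ± 0.10. None of 17 other negative regulators was called, by edgeR or by DESeq2. At an unadjusted p under 0.05, 3 of them were higher and 2 lower with edgeR in Clpp KO against wild type, and 3 higher and 1 lower with DESeq2. Socs3, an inhibitor of JAK kinases induced by cytokines of the IL-6 family, had -2.68 ± 0.94 (adjusted p = 0.145, edgeR quasi-likelihood test), which rested on wild-type replicate 4 and was -0.12 without it. Socs4, another gene of the SOCS family, had 0.40 ± 0.15 (adjusted p = 0.149, edgeR quasi-likelihood test). With wild type limited to replicates 1 and 3, 0 of the 17 were higher and 1 lower at an unadjusted p under 0.05. Of the 4 IRF genes, 1 was then higher at that p. Both are edgeR counts in Clpp KO against wild type.

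None of 11 kinases and adaptors that activate IRF3 and IRF7 was called by edgeR in the 3 comparisons, while DESeq2 called 1 lower in double KO against wild type. At an unadjusted p under 0.05, 2 were higher and 1 lower with either tool in Clpp KO against wild type. Tbk1, the kinase that phosphorylates IRF3, had a log2 fold change of 0.31 ± 0.10 (adjusted p = 0.127, edgeR quasi-likelihood test) there, and Traf6, an adaptor of Toll-like receptor signalling, 0.23 ± 0.09 (adjusted p = 0.159). With wild type limited to replicates 1 and 3, none of the 11 had an unadjusted p under 0.05 there with edgeR. Of 4 tested genes of ISG15 conjugation, the modification that USP18 reverses, none was called in Clpp KO against wild type by edgeR, 1 by DESeq2, and 2 were higher at an unadjusted p under 0.05 with either tool. Herc6, the main ISG15 ligase of the mouse, averaged 6.45 ± 1.65 CPM in double KO and 6.22 ± 1.24 CPM in Clpp KO, against 2.72 ± 0.542 CPM in Fgf21 KO and 3.57 ± 0.814 CPM in wild type. Its log2 fold change was 1.25 ± 0.21 in double KO against Fgf21 KO (adjusted p = 0.00517) and 0.80 ± 0.21 in Clpp KO against wild type (adjusted p = 0.0676). Uba7, the activating enzyme of ISG15, had 0.55 ± 0.19 in Clpp KO against wild type (adjusted p = 0.139). In that comparison 3 of the 4 were higher at an unadjusted p under 0.05 with wild type limited to replicates 1 and 3.

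The 15 listed target genes of ISGF3 were the list with the most calls. In Clpp KO against wild type 11 of 15 were called higher, in double KO against Fgf21 KO 15 of 15 and in double KO against wild type 12 of 15, beside 1.08%, 0.826% and 1.05% of all tested genes, and none was called lower in any of them. Their median log2 fold changes were 1.47, 2.08 and 1.52, beside -0.04, -0.01 and -0.01 over all tested genes. Ifit1, an RNA-binding antiviral protein, averaged 19.2 ± 3.96 CPM in double KO and 20.3 ± 4.52 CPM in Clpp KO, against 2.34 ± 0.260 CPM in Fgf21 KO and 3.29 ± 0.566 CPM in wild type. Its log2 fold change was 2.62 ± 0.18 in Clpp KO against wild type (adjusted p = 9.76e-07, edgeR quasi-likelihood test). Oasl1, which in the mouse restrains translation of Irf7 mRNA, had 2.31 ± 0.19 there (adjusted p = 5.91e-06), Ifit3 2.40 ± 0.22 and Ifit3b 2.42 ± 0.25. The 4 targets not called in that comparison were Oas1a at 0.94 ± 0.24, Oasl2 at 0.85 ± 0.23, Rtp4 at 0.53 ± 0.17 and Oas2 at 0.37 ± 0.19, named after their values were seen. In Fgf21 KO against wild type and in double KO against Clpp KO no gene of any of these lists was called by edgeR. At an unadjusted p under 0.05, 7 of the ISGF3 targets were lower in the first and none in the second. Of all 15255 tested genes, 1399 and 542 had such a p. With wild type limited to replicates 1 and 3, 1 target was lower and 1 higher at that p in Fgf21 KO against wild type. The median log2 fold change of the targets there was then -0.23 in place of -0.49.

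**Figure D4:**
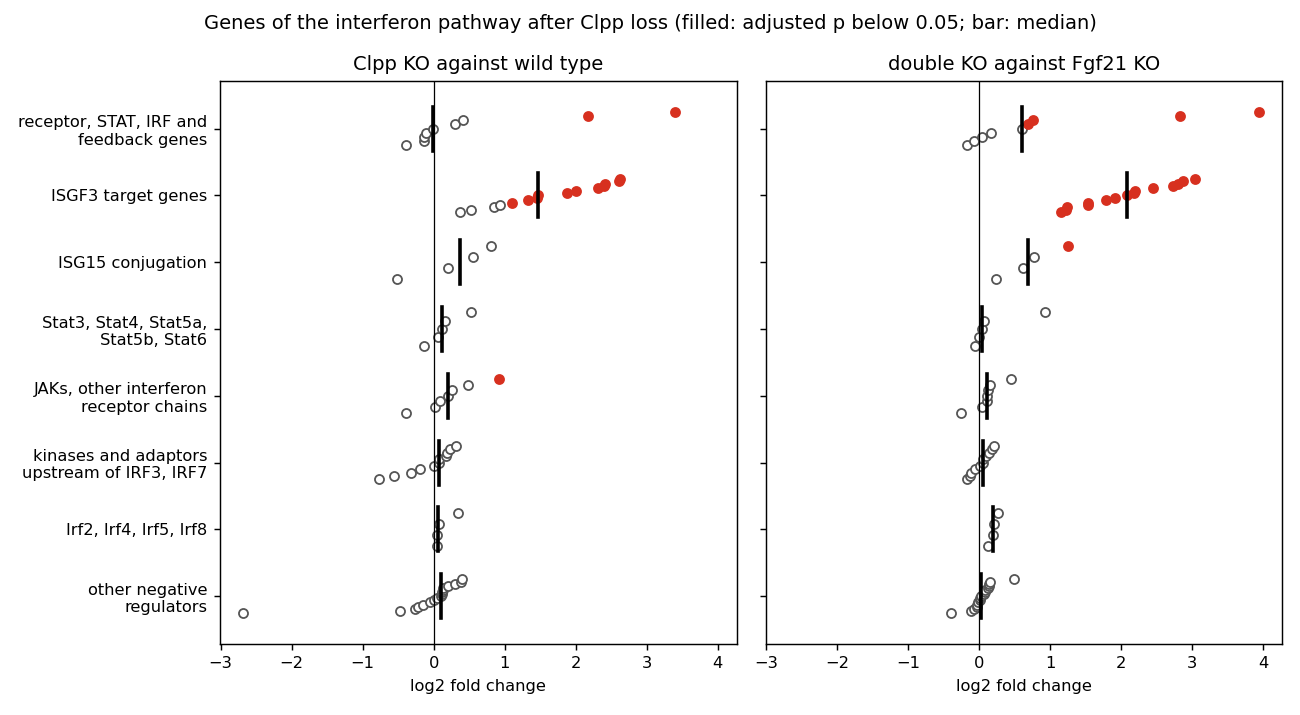
Log2 fold changes of the genes of each list (horizontal axes) in Clpp KO against wild type and in double KO against Fgf21 KO. Each point is a gene, filled where the adjusted p of edgeR's quasi-likelihood test was under 0.05, and vertical bars are list medians; 11 of 15 and 15 of 15 ISGF3 targets are filled, and no gene of the STAT, IRF, negative regulator or upstream kinase lists is.

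The interferons themselves were close to undetected. Of 21 interferon genes in the table, 5 had any count, none reached the filter, and no library held more than 6 counts of any of them. Over all 16 libraries they summed to 44 counts, of which 15 were in double KO, 8 in Clpp KO, 5 in Fgf21 KO and 16 in wild type. Ifnb1 had 3 counts in all and Ifng 8, and Ifnz had 28. No difference between genotypes was detectable at this depth.

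Across the 16 libraries, the genes with the pattern most like Irf7 were Oasl1, Ifit3 and Ifit1. The root mean square difference from Irf7 was 0.20, 0.21 and 0.23 log2 units, after each gene was centred on its own mean. For Usp18 they were Ifit1 at 0.44, Gm12250 at 0.47 and Apol9b at 0.48 log2 units, so that no tested gene lay as close to Usp18 as those 3 did to Irf7. Genes were not scaled to a common range, so this distance also grows with the size of a gene's change. Usp18 spanned 21.4-fold over the 16 libraries and Irf7 9.45-fold. Gm12250 and Apol9b had log2 fold changes of 3.34 and 2.61 in Clpp KO against wild type.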

How the data were processed

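Total RNA of cardiac tissue was made into stranded mRNA libraries with a TruSeq kit and sequenced on a NovaSeq 6000, per the labels' protocols. The authors deposited 1 table of whole-number counts per gene for 16 libraries, 4 of each genotype. Per the submitters' processing notes, the build was GRCm38.p6 and the tools named are kallisto 0.46.1, fastp 0.21.0, R 4.0.3, DESeq2 1.30.1 and edgeR 3.32.1. kallisto assigns reads that match several transcripts in shares; the step that made the counts whole and the use of strand in counting are not given in the sources used here.

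The counts were tested as deposited. The filterByExpr function of edgeR 4.0.16 (count minimum 10, total minimum 15) kept 15255 of 24625 genes with a count, and libraries were scaled by TMM. One robust quasi-likelihood model was fitted to all 16 libraries (12 residual degrees of freedom, common biological coefficient of variation 0.249), with 6 two-sided comparisons and Benjamini-Hochberg adjustment over all tested genes at 0.05, in R 4.3.3. Errors are SE for fold changes and SD for levels; totals of 36260545 to 51820727 counts per library set their precision, and for the 9 genes described the counts ran from 13 to 2639 per library. The steps were tested on simulated data. Alternatives were RLE size factors, library size alone, DESeq2 1.42.0 without independent filtering, no filter, a replicate block, wild type limited to replicates 1 and 3, each library left out in turn and, chosen after seeing the data, wild-type replicates 1 and 3 summed.

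Coordinates and overlaps come from GENCODE M21 on GRCm38, and promoter sequences from RefSeq. Sharing was checked on 31-base stretches of annotated transcripts, on the same and on the opposite strand. The 9 genes, the gene lists and the tests were chosen with earlier results of these data known. Named from each list were up to 4 called genes with the smallest p in Clpp KO against wild type, or the 2 with the smallest p where none was called, and for Irf7 and Usp18 the 3 genes nearest in pattern (log2 CPM with a prior count of 2). Some genes of the pathway lists are not reported here.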

Additional observations from a re-analysis of the deposited data

Results flagged for a closer look

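In 11 of 96 sets of 4 libraries (each named gene in each genotype), 1 library stood so far from the other 3 that the gap, as a share of the range, exceeded the 95% limit of Dixon's test for 4 values. Chance flags about 1 in 20 such sets, and genes that move together are flagged together. Among the 9 genes, Irf1 was lowest in double KO replicate 1 at 14.8 CPM, with the next library at 18.9 CPM. Irf3 was highest in Clpp KO replicate 4 at 27.7 CPM, with the next at 22.9 CPM. Irf9 was highest in Clpp KO replicate 1 at 23.1 CPM, with the next at 19.1 CPM.

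Clpp KO replicate 1 was also highest for Ifit1 at 27.0 CPM (next 18.5 CPM) and for Ifit3b at 20.0 CPM (next 12.8 CPM). Wild-type replicate 2 was highest for Herc6 at 4.78 CPM (next 3.24 CPM) and for Ifit3b at 3.79 CPM (next 2.40 CPM). Fgf21 KO replicate 2 was lowest for Ifit3b at 1.18 CPM (next 2.13 CPM). Clpp KO replicate 4 was lowest for Stat5a at 11.3 CPM (next 13.4 CPM), and double KO replicate 4 for Stat5b at 33.5 CPM (next 39.2 CPM). Socs3 stood at 66.3 CPM in wild-type replicate 4, with the next library at 4.54 CPM; the fat markers of that library summed to 108 CPM, against 12.6 to 30.9 CPM in the other 15. Their part in Socs3 was not tested.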

How the results depend on the processing

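Usp18 and Irf7 were called higher in all 3 comparisons that differ by Clpp under every alternative. The number of the 9 genes called was 2 for Clpp KO and 2 for double KO, each against wild type, and 4 for each with wild type limited to replicates 1 and 3. For double KO it was 3 with DESeq2 and with wild-type replicates 1 and 3 summed, the third being Irf3, lower. Leaving out 1 library gave 2 genes for Clpp KO and 2 to 3 for double KO against wild type, 3 to 4 for double KO against Fgf21 KO, and 0 for the other comparisons.

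Scaling by library size alone, without TMM, moved the median of all genes to -0.79 on the log2 scale (Clpp KO against wild type), -0.70 (double KO against Fgf21 KO) and -0.92 (double KO against wild type), so that most genes were called lower. Of the 9 genes it called 7 for Clpp KO against wild type (2 higher, 5 lower), 6 for double KO against Fgf21 KO (2 higher, 4 lower; 4 higher with TMM) and 9 for double KO against wild type (2 higher, 7 lower). Over all genes it called 11929 for Clpp KO against wild type, 10859 for double KO against Fgf21 KO and 13123 for double KO against wild type, of which 95, 96 and 85 were higher. It turned the sign of Stat2 (-0.50) in the first, of Ifnar1 (-0.65) and Irf1 (-0.53) in the second, and of Stat2 (-0.63), Irf1 (-0.75) and Irf9 (-0.52) in the last. Tbk1 (-0.43, -0.48, -0.66), Traf6 (-0.52, -0.68, -0.85), Stat5b (-0.58, -0.69, -0.81) and Irf2 (-0.66, -0.57, -0.86) turned in all 3, Stat5a (-0.63, -0.86) in the first and last, and Socs4 (-0.60, -0.66) in the second and last. Stat2 (0.00) and Irf9 (0.08) were then not called for double KO against Fgf21 KO, though both stood above that median.

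Over all genes, edgeR called 249 (165 higher, 84 lower) for Clpp KO against wild type, 7 for Fgf21 KO against wild type, 136 for double KO against Fgf21 KO, 9 for double KO against Clpp KO, 233 (160 higher, 73 lower) for double KO against wild type and 0 for the interaction. In the same order, DESeq2 called 841 (439 higher, 402 lower), 34, 209, 35, 959 (409 higher, 550 lower) and 3. With wild type limited to replicates 1 and 3 the counts were 159 (132 higher, 27 lower) and 148 for the Clpp-null groups against wild type, 241 for double KO against Fgf21 KO and 15 for double KO against Clpp KO. Summing those replicates gave 562 for Clpp KO and 821 for double KO against wild type. Leaving out 1 library gave 114 to 949, 5 to 8, 94 to 160, 6 to 10, 129 to 1116 and 0; the counts of 949 and 1116 came without wild-type replicate 3, that of 114 without Clpp KO replicate 1 and that of 129 without double KO replicate 2. The causes were not tested.

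Same-numbered samples were not clearly alike: of 24 same-numbered pairs, 4 had deviations from the group means that correlated above 0.1 (range -0.228 to 0.364). Pairs with different numbers ran from -0.498 to 0.496. The labels do not say if a number stands for a shared litter or day, and this was not tested. A replicate block gave 146 calls for Clpp KO against wild type (119 higher, 27 lower) and changed no call of the 9 genes. Low counts limit what depth can show for Socs1 and the interferon genes.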
